A study of Equus caballus with 12 samples.

Results

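Among the 31217 horse genes in the deposited count files, 8 formed a small group whose level varied strongly between the lungs of 4 horses and met a limit on the spread between their hearts and between their livers. For 2 of the 8, ENSECAG00000022739 in liver and ENSECAG00000025078 in heart, the limit was met at a few counts per library, so a smaller spread there than in lung was not shown. For ENSECAG00000025126 the lowest heart library held 3 counts, so a smaller spread in heart was not shown either. The 8 genes were chosen by their measured values. Normalised read counts, which are raw counts divided by a size factor for each library, had to have a median of at least 200 in lung and a highest lung library at least 6 times the lowest. The lung median also had to stay under 20 times the higher of the heart and liver medians. In heart and in liver, the highest library had to stay below 4 times the lowest after 5 had been added to each value. The lung values, the heart and liver spreads and the comparison of lung with the other tissues were therefore all used in the choice and are given here as a description. The difference between heart and liver was not used, although the spread inside each was.

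Messenger RNA of 3 organs from the same 4 horses was measured by RNA-seq, in 12 libraries. The replicate number is that of the horse, and a given number therefore marks 1 animal in each organ. According to the methods of the study, the animals were young healthy stallions of a cold-blooded type, and the pieces came from the right lung, in its caudal lobe (L), from the left ventricle (H) and from the right liver lobe (LR). Each tissue had n = 4, with 1 piece per organ and animal, so a difference between 2 lungs cannot be told apart from a difference between 2 places within a lung.

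The lung is a mixture of many cell types. Alveolar epithelium lies beside airway epithelium, vessels, cartilage, smooth muscle and immune cells that enter from the blood or live in the air spaces, and the proportions of these cells differ between places in the organ. In a piece of tissue, fewer cells of a type and less RNA per cell cannot be told apart. The files identify genes by Ensembl identifier only. The reference table used here pairs none of the 8 with a symbol. A supplement of the study names a single one of them, and that symbol was left out by choice, so functions are not described and the markers of cell types were not checked.

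Reads counted in genes numbered 8395937, 14254902, 22247307 and 18827423 in lung replicates 1 to 4 and ranged from 4345694 to 23474239 over the 12 libraries. Lung replicate 1 was the shallowest lung library. It also had the largest share of reads that matched more than 1 gene, at 2.57% against 1.78 to 2.36% in the other lungs. Heart replicate 2 stood apart from the other hearts, since 30 genes restricted to liver (the most abundant there among those whose lung median was below 1% of the liver median) reached a median of 2.95% of their liver level there, compared with 0.0452 to 0.248% in the other 3. In the lung libraries the like genes, chosen against heart, reached 0.0236 to 0.0642% of their liver level, and 30 genes restricted to heart against liver reached 0.0268 to 0.05002% of their heart level.

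A lung spread of this size was uncommon. Of 6466 genes with a lung median of at least 200, 94 had a highest lung library at least 6 times the lowest, which was 1.45%. The median ratio over the 6466 genes was 1.40, and the 95th and 99th percentiles were 3.10 and 7.77. The demand on the level of lung against the other tissues removed 13 of the 94 genes. Among the other 81, the spread limit removed 49 genes that varied in both heart and liver, 13 that varied in heart alone and 11 that varied in liver alone. With heart replicate 2 left out of the heart values 15 genes met the rule, and with liver replicate 1 left out of the liver values 16 did. The 8 were among them in both cases. Leaving out a library cannot widen a spread, so the 8 met the spread limit again by construction. The 8 genes were not the most extreme, as they ranked 47, 66, 73, 77, 79, 81, 85 and 91 among the 6466 genes by lung ratio.

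**Figure D1:**
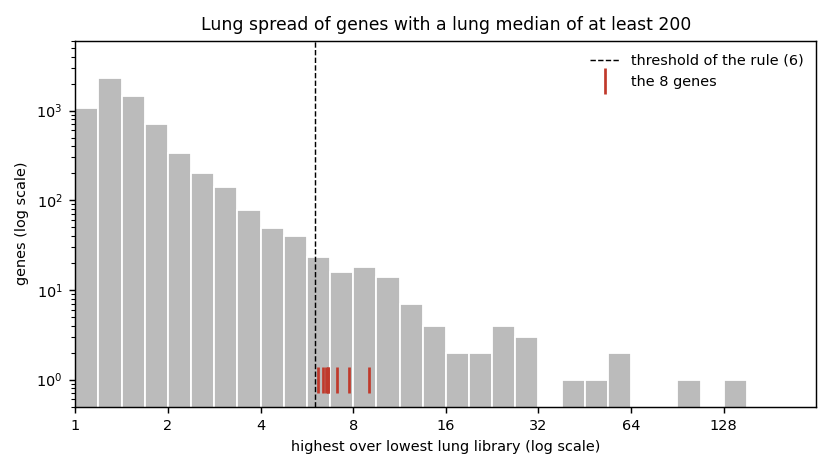
Number of genes (log scale) by the ratio of the highest to the lowest lung library (log scale), over the 6466 genes with a lung median of at least 200. The dashed line marks the ratio of 6 and red ticks mark the 8 genes, which lie between 6.17 and 8.99, while the bulk of genes lies near the median of 1.40.

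Genes lay close to both sides of the thresholds. ENSECAG00000025126 and ENSECAG00000020066 lay just inside the lung ratio, at 6.17 and 6.36. ENSECAG00000009302 and ENSECAG00000019670 lay just outside, at 5.92 and 5.55. By lung median, ENSECAG00000022739 and ENSECAG00000025078 lay just inside at 253 and 278 normalised read counts. ENSECAG00000023330 and ENSECAG00000024377, with medians of 199.6 and 191, lay just outside.

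The 8 genes did not follow 1 pattern across the lungs. Lung replicate 1 was the lowest library for 5 of them and lung replicate 2 for the other 3. The highest library was lung replicate 3 for 4 genes, lung replicate 2 for 2 genes, and lung replicates 1 and 4 for 1 gene each. Lung replicates 1 to 4 were the highest for 38.9, 22.6, 27.8 and 10.7% of the 6466 genes. Of the 94 lung-variable genes, they were the highest for 7, 60, 23 and 4. Over the 6466 genes, lung replicate 1 was the lowest for 26.2% and lung replicate 2 for 31.7%. Among the 94 lung-variable genes, lung replicate 1 was the lowest for 60 and lung replicate 2 for 16. The shallow depth and the ambiguous share of lung replicate 1 go with its place as the lowest lung, and their part in it was not tested.

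**Figure D2:**
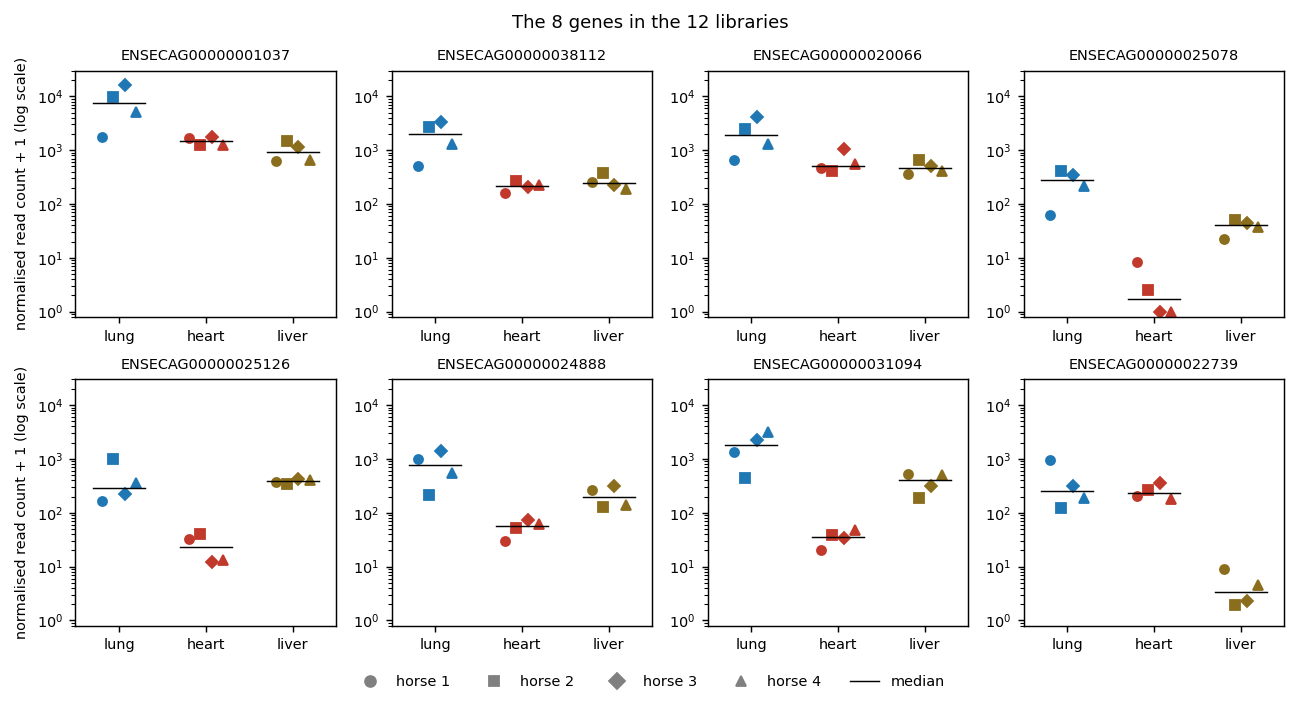
Normalised read count plus 1 (log scale) of each gene in the lung, heart and liver libraries, 4 of each tissue. The symbol gives the horse and the line the median. The lung points are spread over a ratio of 6.17 to 8.99 in every panel. Lung replicate 1 is the lowest lung point in the top row and in the first panel of the bottom row, and lung replicate 2 in the other panels.

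Of the 8 genes, 3 shared 1 order of the lungs, namely replicate 1, then 4, then 2, then 3 from lowest to highest. That order was held by 501 of the 6466 genes (7.75%) and by 11 of the 94 lung-variable genes. ENSECAG00000001037 was the most abundant of the 8 in lung and had the widest lung ratio. Its normalised read counts were 1784, 9832, 16032 and 5165 in lung replicates 1 to 4. In heart the values were 1651, 1240, 1742 and 1251, and in liver 617, 1454, 1164 and 661. Lung replicate 1 lay just above the highest heart, whereas the other 3 lungs lay far above every heart and liver. The lung ratio of 8.99 had a counting interval of 8.62 to 9.38 (95%), since the 2 libraries held 53064 and 2271 counts. Intervals of this kind cover counting error only.

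ENSECAG00000038112 had the same shape at a lower level. The lung values were 500.4, 2688, 3308 and 1328 normalised read counts, the heart values 161, 261, 205 and 219.9, and the liver values 258, 375, 221 and 189. Here all 4 lungs lay above all hearts and livers, also the low lung replicate 1. The lung ratio was 6.61 (95% counting interval 6.10 to 7.17).

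ENSECAG00000020066 measured 661, 2460, 4203 and 1312 normalised read counts in lung. The hearts held 472, 408, 1069 and 557, and the livers 357, 660.2, 506 and 411. Lung replicate 1 lay below heart replicate 3 and level with liver replicate 2, so the separation from the other tissues rested on the other 3 lungs. The lung ratio was 6.36 (95% counting interval 5.93 to 6.83).

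ENSECAG00000025078 had its lowest values in lung replicate 1 as well, but with lung replicate 2 above 3. Its lung values were 62.8, 411, 337 and 218 normalised read counts, and its liver values 21.7, 50.5, 43.7 and 36.3. In heart it was close to absent, with 9, 1, 0 and 0 raw counts in replicates 1 to 4. A count of 0 allows up to 3 counts, which correspond to 11.0 normalised read counts in heart replicate 3 and 2.87 in heart replicate 4. Every lung lay above every liver and heart. The lung ratio was 6.54, with a wide counting interval of 5.19 to 8.33 that comes from 80 counts in lung replicate 1. This order, 1, 4, 3, 2, was the most frequent among the lung-variable genes, with 41 of 94, against 7.32% of the 6466 genes.

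When each lung library is expressed as a percent of the mean of the 4 lungs, these profiles can be laid over each other. Lung replicate 1 stood at 21.7% for ENSECAG00000001037, 25.6% for ENSECAG00000038112, 30.6% for ENSECAG00000020066 and 24.4% for ENSECAG00000025078. Lung replicate 4 was below the mean for all 4 genes, at 63.0, 67.9, 60.8 and 84.8% in that order. Lung replicates 2 and 3 were above it, at 114 to 160% and 131 to 195%. After the profiles had been centred, ENSECAG00000038112 differed from ENSECAG00000001037 by at most 1.22-fold in any lung, from ENSECAG00000020066 by at most 1.21-fold and from ENSECAG00000025078 by at most 1.31-fold. Other genes had such profiles too. Of the 6466 genes, 30 stayed within 1.5-fold of ENSECAG00000038112 in every lung, of which 3 belonged to the 8, while 19 varied at least 4-fold in heart and 20 did so in liver. With 4 lungs, a likeness of profile is a weak description.

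The remaining 4 genes each had a profile of their own. ENSECAG00000025126 stood out through a single high lung. Its values were 163, 1003, 224 and 362 normalised read counts in lung, 31.8, 38.8, 11.0 and 12.4 in heart, and 368, 345, 423 and 411 in liver. Lung replicate 2 lay above every liver, and the other 3 lungs lay within or below the range of the livers. The livers were nearly level, with a highest library 1.23 times the lowest. Relative to the lung mean, lung replicate 2 stood at 229% and the other 3 at 37.1 to 82.6%. Without lung replicate 2 the lung ratio of this gene was 2.23 instead of 6.17. In the whole set 42 genes had a lung profile within 1.5-fold of it, and 21 of these exceeded the limit on lung level against heart and liver.

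In ENSECAG00000024888 lung replicate 2 was the low library. The lung values were 983, 214, 1419 and 554 normalised read counts, the heart values 28.4, 50.8, 73.2 and 62.2, and the liver values 260, 130, 310 and 138. The lowest lung fell between the livers, and all lungs lay above all hearts. The lung ratio was 6.63 (95% counting interval 6.02 to 7.33).

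ENSECAG00000031094 had its lowest lung in replicate 2 as well, and was the only one of the 8 with its highest lung in replicate 4. It measured 1344, 442, 2268 and 3137 normalised read counts in lung, 19.2, 37.3, 32.9 and 46.9 in heart, and 525, 187, 318 and 501 in liver. The lowest lung again fell within the range of the livers. The lung ratio was 7.10 (95% counting interval 6.63 to 7.60). No other gene of the 6466 came within 1.5-fold of its lung profile, and its order of the lungs was held by 2.15% of genes.

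ENSECAG00000022739 was high in lung replicate 1, the lung in which 5 of the other genes were lowest. Its lung values were 964, 124, 318 and 188 normalised read counts, against 202, 266, 359 and 180 in heart. The other 3 lungs thus lay within or below the range of the hearts. In liver it was near the limit of detection, with 6, 1, 1 and 1 raw counts, or 8.15, 0.953, 1.25 and 3.63 normalised read counts. The lung ratio was 7.77 (95% counting interval 6.79 to 8.92) and was 2.56 without lung replicate 1.

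**Figure D3:**
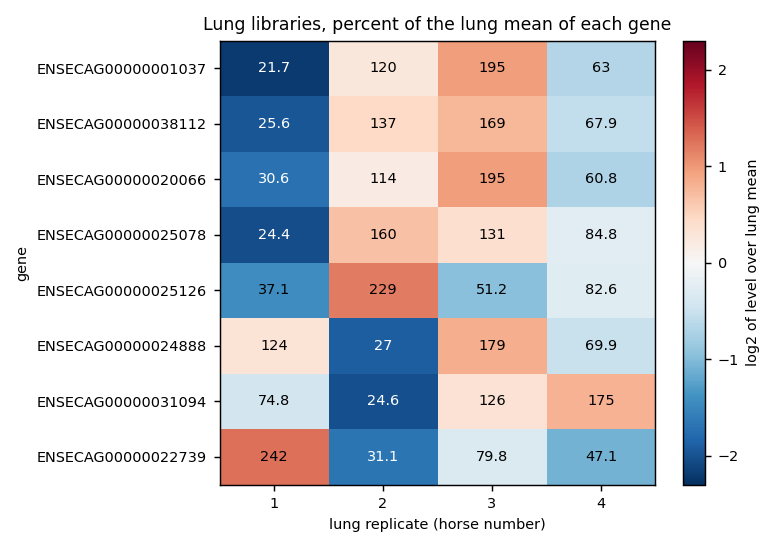
Level of each gene in lung replicates 1 to 4 as a percent of the mean of its 4 lung libraries (numbers), coloured by the log2 of that ratio. The top 4 genes are blue in replicate 1 and red in replicates 2 and 3, and the lower 4 genes differ from them and from each other, with a high of 242% in replicate 1 for ENSECAG00000022739.

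For every gene the lung ratio rested on the highest and the lowest library. When each lung was left out in turn, the ratio stayed at 6 or more in 2 of the 4 cases for each of the 8 genes. That it did so in at least 2 cases was set in advance, since the 2 middle libraries do not enter the ratio. The smallest ratios so obtained ranged from 1.88 for ENSECAG00000025078 without lung replicate 1 to 3.20 for ENSECAG00000020066 without the same library. The limit on the spread in heart and liver rested partly on the 5 added to each value. With nothing added, ENSECAG00000022739 spread 8.56-fold in liver, on 6 counts against 1, and ENSECAG00000025078 had no defined ratio in heart, on 9 counts against 0. For these 2 genes, whether the level was even in that tissue was not detectable at this depth. For the other 6, the spread with nothing added was 1.23 to 3.54 in heart and liver. The 3.54 belongs to ENSECAG00000025126 in heart, where the lowest library held 3 counts, so it is poorly determined.

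Lung was then compared with the other tissues of the same horse. For ENSECAG00000001037 the lung exceeded the heart 1.08-fold in horse 1 and 7.93, 9.20 and 4.13-fold in horses 2, 3 and 4. Against liver the ratios were 2.89, 6.76, 13.8 and 7.81. For ENSECAG00000038112 they were 3.11, 10.3, 16.1 and 6.04 over heart and 1.94, 7.16, 15.0 and 7.03 over liver. For ENSECAG00000020066 they were 1.40, 6.03, 3.93 and 2.35 over heart and 1.85, 3.73, 8.31 and 3.20 over liver. Horse 1 had the smallest excess of lung in each of these 6 series, and lung was above the other tissue in every horse. Lung replicate 1 is the lowest lung of these genes and the other spreads were limited, so the place of horse 1 follows largely from the choice.

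ENSECAG00000025078 exceeded the liver 2.89, 8.13, 7.72 and 6.002-fold in horses 1 to 4. Against heart the ratio was 8.35 in horse 1. In horse 2 it was 275 on a single heart count, with a counting interval of 49.2 to 10875, and in horses 3 and 4 it was at least 30.7-fold and at least 76.0-fold higher in lung, computed against the floor of 3 counts per library. The size of the excess over heart is therefore poorly determined, while horse 1, the horse of the lowest lung, was again the smallest.

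ENSECAG00000031094 was 69.8, 11.8, 68.8 and 67.0-fold higher in lung than in heart and 2.56, 2.37, 7.12 and 6.26-fold higher than in liver. ENSECAG00000024888 was 34.6, 4.21, 19.4 and 8.91-fold higher than in heart and 3.79, 1.65, 4.58 and 4.01-fold higher than in liver. Horse 2 had the smallest excess in all 4 series of these genes, and lung replicate 2 is also their lowest lung, so this too follows largely from the choice. ENSECAG00000025126 was above heart in every horse, by 5.11, 25.8, 20.4 and 29.1-fold, where the value of horse 3 rests on 3 heart counts (95% counting interval 6.97 to 99.4). Against liver its ratios were 0.441, 2.91, 0.530 and 0.882, so lung exceeded liver in horse 2 and lay below it in the other 3. ENSECAG00000022739 was 4.78-fold higher in lung than in heart in horse 1 and 0.467, 0.887 and 1.04 times the heart level in horses 2 to 4. Its lung to liver ratios, 118, 130, 255 and 51.7, rest on 1 to 6 liver counts, and the intervals of the 3 ratios with 1 liver count span 9.24 to 10071.

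**Figure D4:**
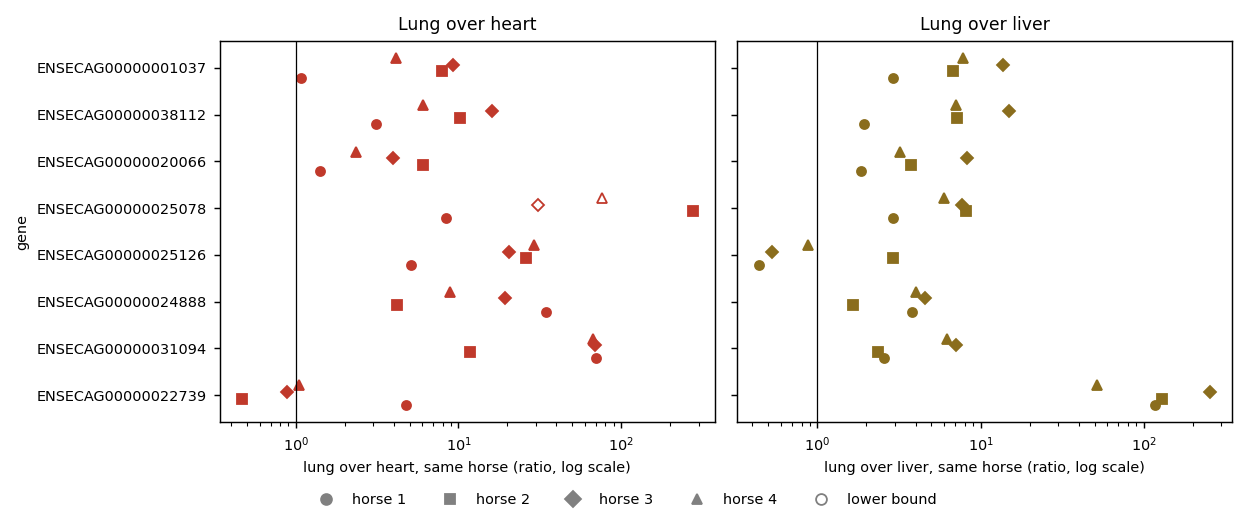
Ratio of lung to heart (left) and of lung to liver (right) in the same horse for each gene (log scale), with the symbol for the horse and a line at 1. Open symbols are lower bounds against the floor of 3 counts. In the top 3 rows horse 1 has the lowest ratio in both panels, at 1.08 to 3.11, and ENSECAG00000022739 crosses the line in the left panel only.

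Whether the horse that was extreme in lung was also extreme elsewhere was counted next. The horse with the highest lung also had the highest heart for 5 of the 8 genes, compared with 32.6% of the 6466 genes, and the highest liver for 3, compared with 39.0%. The horse with the lowest lung had the lowest heart for 1 gene (29.3% of genes) and the lowest liver for 6 (35.2% of genes). ENSECAG00000022739 is among the 6, although its livers in horses 2, 3 and 4 held 1 raw count each. Size factors alone set its lowest liver. Only ENSECAG00000024888 had its highest value in the same horse, horse 3, in all 3 tissues. The liver order 1, 4, 3, 2 was held by ENSECAG00000001037, ENSECAG00000025078 and ENSECAG00000020066 and by 6.85% of genes. These counts are a description of 8 genes measured in the same 4 animals.

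A difference between horses that was shared by heart and liver was tested in the 8 heart and liver libraries, with tissue as a term. In edgeR's quasi-likelihood test 0 of the 8 genes were called, beside 0% of 13312 genes tested, and with DESeq2 the count was 0 of the 8 genes and 213 of all genes. At an unadjusted p under 0.05, 0 of the 8 genes and 5.74% of all genes passed in edgeR. Single libraries moved these counts. Without heart replicate 2, the library that stood apart, 3 of the 8 genes passed the unadjusted threshold, namely ENSECAG00000001037, ENSECAG00000031094 and ENSECAG00000020066. At the adjusted threshold, 0 of the 8 and 36 of all 13713 genes were called there. Without liver replicate 2, 1 of the 8, ENSECAG00000020066, passed the unadjusted threshold. At the adjusted threshold, 0 of the 8 and 360 of all 13568 genes were called there. The share of all genes at the unadjusted threshold was not counted without these libraries, so the unadjusted counts have no background. The choice limited the spread in these same 8 libraries, so the counts say nothing about whether the 8 genes differed between horses outside the lung.

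The difference between heart and liver did not enter the choice of the genes. The limit on the spread inside heart and inside liver did, and it bears on the variation behind these calls, while the genes that form the background had no such limit. The lung spread that chose the genes bears on the calls too, as the model shares 1 estimate of spread over the 3 tissues. Of the 8 genes, 5 were DEGs in HvsLR, that is, they passed an adjusted p of 0.05 and an absolute log2 fold change of 1 in edgeR's quasi-likelihood test. Of all 15436 genes tested, 48.4% were called, 26.4% higher in heart and 22.0% higher in liver. With 8 genes and a background that was not matched for spread, nothing particular to the 8 is read from 5 calls. Of the 5 DEGs, 1 was higher in heart and 4 were higher in liver. The median absolute log2 fold change was 2.70 for the 8 genes and 1.12 for all genes. ENSECAG00000022739 (6.28) in liver and ENSECAG00000025078 (-3.58) in heart met the spread limit at a few counts per library. Near-absence in 1 tissue passes that limit and also goes with a large difference between heart and liver. Nothing is therefore read from these medians. No heart library overlapped a liver library for the same 5 genes, 1 with all hearts above (28.6% of the 6466 genes) and 4 with all hearts below (28.9%).

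ENSECAG00000022739 was the gene higher in heart, where the 4 libraries held 705 counts against 9 in liver. Its log2 fold change was 6.28 ± 0.86 (SE, n = 4 per tissue) with an adjusted p of 4.67e-05 in edgeR's test, and the pooled counts gave a ratio of 70.4 (95% counting interval 36.9 to 155). The fitted value rests on the few liver counts and was 7.38 without liver replicate 1.

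ENSECAG00000025126 was 14.9-fold higher in liver than in heart, at a log2 fold change of -3.90 ± 0.60 and an adjusted p of 0.000118 in edgeR's test. ENSECAG00000031094 was 10.7-fold higher in liver, at -3.42 ± 0.60 and 0.000343. ENSECAG00000024888 was 3.95-fold higher in liver, at -1.98 ± 0.55 and 0.00756. For these 3 genes the order of the tissues placed heart lowest. Heart replicate 2, which held liver-restricted transcripts, had their highest heart level only in ENSECAG00000025126, and without that library the 3 log2 fold changes were -4.17, -3.46 and -1.97. ENSECAG00000025078 had a log2 fold change of -3.58 ± 0.85 and an adjusted p of 0.00241, from 10 heart counts of which 9 lay in heart replicate 1. Without that library the value was -5.97, so only the direction is well determined.

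The 3 genes with the shared order of the lungs were the 3 that were not DEGs in HvsLR. The log2 fold change was 0.64 for ENSECAG00000001037 (95% interval -0.49 to 1.76, adjusted p 0.304 in edgeR's test), -0.27 for ENSECAG00000038112 (-1.28 to 0.75, adjusted p 0.641) and 0.40 for ENSECAG00000020066 (-0.67 to 1.47, adjusted p 0.498). The intervals leave room for differences of more than 2-fold, so similar levels in heart and liver were not shown. The lung spread that chose these genes also widens the intervals, through the estimate of spread shared by the tissues. A related estimate of edgeR, which is not the one behind the intervals, gives the spread as a share of the mean. For the 3 genes it was 0.449 to 0.520 over the 3 tissues together. Fitted to each tissue on its own, it was 0.281 to 0.365 in heart, 0.265 to 0.344 in liver and 0.568 to 0.635 in lung.

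**Figure D5:**
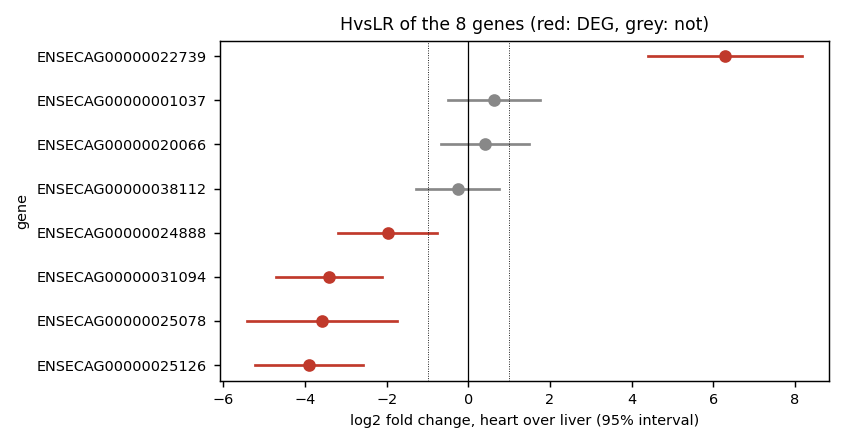
Log2 fold change of heart over liver for each gene with a 95% interval computed from the statistic of edgeR's test. Red marks DEGs and grey the others, with dotted lines at -1 and 1. ENSECAG00000022739 lies at 6.28, 4 genes lie between -3.90 and -1.98, and the 3 grey genes lie between -0.27 and 0.64 with intervals that span 0.

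The comparisons of lung with heart and liver were part of the choice, and their counts are given without a reading. In LvsH 7 of the 8 genes were DEGs higher in lung, beside 24.5% of all genes in that direction and 45.2% in either, with log2 fold changes of 1.63 to 6.197. The exception was ENSECAG00000022739 at 0.49. In LvsLR 7 of the 8 were DEGs higher in lung, beside 31.1% of all genes in that direction and 50.4% in either, with log2 fold changes of 1.78 to 6.77. The exception there was ENSECAG00000025126 at 0.06. All lungs lay above all hearts for 6 genes, beside 41.7% of the 6466 genes, and above all livers for 5, beside 42.8%. For 0 of the 8 genes did all lungs lie below all hearts or all livers, beside 19.5 and 23.2%. These comparisons share the lung libraries, so they are not separate evidence.

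The 8 genes together took 0.0980, 0.250, 0.418 and 0.191% of all gene counts in lung replicates 1 to 4. ENSECAG00000001037 was the largest contributor in each lung, and the share was lowest in lung replicate 1. In heart and liver the 8 genes took 0.0108 to 0.0185% of gene counts.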

How the data were processed

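Polyadenylated RNA from heart, lung and liver of 4 horses was sequenced in 150-base paired reads, and each library had 1 file. The files hold whole-number counts as deposited, without normalization. The authors made them, per the labels and the study's methods, by quality control in FastQC, alignment to EquCab3.0 in TopHat2 and counting over the Ensembl annotation in HTSeq, and ran DESeq2 on them. How HTSeq treated strand is not given in the sources used. The kit does not mark strand, so overlapping and antisense genes cannot be told apart. Reads that matched several places or genes were set aside by HTSeq and stayed out of library sizes.

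Size factors were medians of ratios over the 8968 genes with at least 10 counts in all 12 libraries. DEGs were called from raw counts in edgeR 4.0.16 (R 4.3.3), with default filtering by tissue, TMM scaling, 1 robust quasi-likelihood model of the 3 tissues and Benjamini-Hochberg adjustment over 15436 genes. The thresholds, an adjusted p of 0.05 and an absolute log2 fold change of 1, are those of the study. The horse term used the 8 heart and liver libraries. The tests of tissue and horse were run on simulated counts with planted shifts in heart. No horse effect and no lung spread were planted, so neither the rule nor the power of the horse term was tested. Alternatives were DESeq2 1.42.0, other scalings, no filter, a horse block, other thresholds of the choice and single libraries left out. Counting intervals are exact 95% intervals and cover counting error only, since duplicates were not marked. P-values of the tissue tests rest on the spread between libraries within a tissue, pooled over the 3 tissues and moderated across genes. The SE was computed as the absolute log2 fold change over the square root of the F statistic of that test. The 95% intervals of log2 fold changes are symmetric t intervals from this SE, and are approximate for genes with few counts. Each tissue had 4 animals with 1 piece each. The main model left out the pairing by horse.

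The 8 genes, and the lists and tests, were chosen with earlier results of these data known. All 8 are named, with the genes nearest to the thresholds. Horse numbers pair libraries because 1 number is 1 animal. Deviations from tissue means correlated at 0.232 on average in the 12 pairs from the same animal (0.109 to 0.574). In 36 pairs from different animals the average was -0.0771 (-0.420 to 0.230), so the ranges overlap. Deviations within a tissue cancel, so the second average largely follows from the first and is not separate evidence. A RefSeq table of a different horse assembly pairs 0 of the identifiers. A supplement of the study names 1 of the 8 genes and was left out by choice. Symbols, gene lists, cell type markers, positions and sequences were therefore not used here.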

Additional observations from a re-analysis of the deposited data

How the results depend on the processing

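The number of genes that met the rule was 8, and it depended on the thresholds and on single lungs. It was 14 with a lung ratio of at least 5, 1 with a ratio of at least 8, 18 with a lung median of at least 100 and 5 with a median of at least 400. With library totals alone as the scaling it was 17, of which 6 were among the 8 genes, and ENSECAG00000038112 and ENSECAG00000025126 were lost. Leaving out 1 of the 12 libraries in turn gave 2 to 16 genes. The count was 2 without lung replicate 1, 5 without lung replicate 2 (3 shared), 3 without lung replicate 3 and 10 without lung replicate 4 (7 shared). Leaving out hearts or livers was chosen after seeing the data. It gave 15 genes without heart replicate 2, 16 without liver replicate 1 and 8 to 12 without any of the other 6. The 8 genes were kept in each case, but leaving out a library cannot widen a spread. That they met the spread limit again was therefore set in advance. With nothing added before the heart and liver spread, also chosen after seeing the data, 6 remained. TMM factors gave 10 genes and size factors from genes with at least 1 count gave 9, the 8 among them in both. Lung replicate 1 stayed the lowest lung for 5 of the 8 genes under these scalings and library totals, which were tried after seeing the data.

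The counts of DEGs among the 8 genes were 5 in HvsLR, 7 in LvsH and 7 in LvsLR, and with horse as a replicate block, the pairing of libraries by animal, they were again 5, 7 and 7. Library totals alone gave 8 in LvsH and 8 in LvsLR. They shifted the all-gene median, on the log2 scale, from 0.03 to 1.85 in LvsH and from 0.26 to 1.81 in LvsLR, and called ENSECAG00000022739 in LvsH at 2.34 and ENSECAG00000025126 in LvsLR at 1.59. The sign of 2 values that were not called turned. ENSECAG00000025126 in LvsLR was -0.27 with the horse block, and it ranged from -0.74 without lung replicate 2 to 0.34 without lung replicate 1, with -0.07 without liver replicate 4. ENSECAG00000022739 in LvsH ranged from -0.40 without lung replicate 1 to 0.79 without lung replicate 2. The cause was not tested. Leaving out lung replicate 1 moved LvsLR of ENSECAG00000022739 to 5.88, leaving out liver replicate 1 moved it to 7.88, leaving out heart replicate 1 moved LvsH of ENSECAG00000025078 to 8.59, and leaving out lung replicate 2 moved LvsH of ENSECAG00000025126 to 3.16. The block changed no call. The horse term called 0 of the 8 genes in every alternative, a count that the choice of the genes largely sets.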
